A study of Homo sapiens with 6 samples.

Results

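The genes described here are NRAS, a RAS GTPase, and 8 genes whose transcription is known to follow ERK activity: the MAP kinase phosphatases DUSP4, DUSP5 and DUSP6, the Sprouty inhibitors SPRY2 and SPRY4, the ETS factors ETV4 and ETV5, and the AP-1 subunit FOSL1. They were chosen by name, but with earlier results of these data known. Each symbol matched 1 row of the deposited gene table, and all 9 passed the filter on low counts, among 20134 tested genes of 35784 in the table. Their levels come from 6 total RNA sequencing libraries of NCI-H1299, an established human lung cancer line, labelled as LUAD (lung adenocarcinoma) cells, that is known to carry an activating NRAS mutation. There were 3 libraries from cells with a control vector (genotype control) and 3 from IGF2BP3 knockout cells. The knockout was made with a lentiviral CRISPR vector carrying guides to IGF2BP3, an RNA-binding protein known as a reader of N6-methyladenosine. All cells were kept untreated in the same serum-containing medium, and after puromycin selection single-cell colonies were grown on. Neither the colony behind a library nor separate cultures for the replicates are given in the labels, so p-values here cover the spread among these 6 libraries alone, which may be technical. Differences between colonies and the effect of the knockout cannot be told apart.

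RAS proteins are membrane-bound switches that, when loaded with GTP, recruit RAF kinases, which activate MEK and then ERK. Active ERK induces its own inhibitors: DUSP proteins remove the activating phosphates from MAP kinases, and Sprouty proteins act further upstream, between growth factor receptors and RAF. The same signal induces transcription factors such as ETV4, ETV5 and FOSL1, and the messages of these genes are widely used as a readout of ERK output in tumour cells. A gene-level count does not separate a mutant from a normal NRAS message, and it does not measure phosphorylated ERK.

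Total counts ran from 67674223 to 80810319 per library, and a floor of 3 counts corresponded to at most 0.0435 CPM (read counts divided by the TMM-adjusted library size and scaled to a common total), for counting error only. IGF2BP3 itself was at 54.8 ± 3.63 CPM in the controls, against 29.2 ± 9.35 CPM in the knockout libraries (SD, n = 3), with the highest knockout value, 39.9 CPM, in replicate 1. Its fall (log2 fold change -0.91, adjusted p = 0.017) kept its direction but missed the threshold without control replicate 1, 2 or 3 or knockout replicate 2, at adjusted p from 0.05 to 0.067. Chi-square per degree of freedom between replicates was at least 98.1 for pairs with knockout replicate 1 and at least 45.2 for pairs with control replicate 3, against 14.8 and 12.2 for the remaining knockout and control pairs, so these 2 libraries stood apart. The epithelial keratins KRT8 and KRT18 were abundant, from 1690 to 4870 CPM, and the 4 epithelial markers summed to 7630 to 8210 CPM in the controls but 4030 to 4510 CPM in the knockout libraries. The sums of mesenchymal (1350 to 1410 and 1090 to 2050 CPM) and fibroblast markers (7.38 to 8.44 and 8.95 to 12 CPM) are given in the same order, and endothelial markers were at or under 0.73 CPM. Single markers differed within these sums. ZEB1 rose (log2 fold change 0.42, adjusted p = 0.019), while VIM (0.11, adjusted p = 0.79) and CDH2 (-0.83, adjusted p = 0.059) did not pass. KRT8 (-0.97), KRT18 (-0.83) and CDH1 (-1.54) fell, at adjusted p of at most 0.0038, and EPCAM (-0.36, adjusted p = 0.16) did not pass. The lung lineage factor NKX2-1 was at or below 0.736 CPM in every library, and the 6 lung lineage markers summed to between 0.925 and 2.39 CPM. Leukocyte markers summed to 15.2 to 18.4 CPM in the controls and 7.2 to 9.84 CPM in the knockout libraries, most of it CD14, a monocyte marker (16, 16.6 and 15 against 4.32, 7.69 and 6.86 CPM; log2 fold change -1.34, adjusted p = 0.0045), with CD3E at 0 in all 6 libraries and PTPRC at 0 in all but knockout replicate 2 (0.297 CPM). The part of these markers in the results was not tested. In libraries of bulk RNA, fewer cells of a type and less message per cell cannot be told apart. Chromosome 16, where 374 of 948 tested genes fell and 6 rose, and chromosome Y, where 20 of 25 rose, hold 0 of the 9 genes. The marker CDH1 does lie on chromosome 16, as does MAPK3 of the kinase list below (log2 fold change -0.31, adjusted p = 0.17).

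The set of RefSeq promoter sequences used here (GRCh38.p14) held 4 of the 9 genes and none of DUSP4, DUSP5, ETV4, ETV5 and FOSL1. The 100 bases before the start site are shown for each of the 4 because ETS and AP-1 factors are among the known nuclear targets of ERK. The window searched was 300 bases, 250 before and 50 after the start, on both strands, for CCGGAAG (ETS), TGANTCA (AP-1), TGACGTCA (the cyclic AMP response element) and CACGTG (E-box). Capitals mark a match. For SPRY2, the start that equals the gene start in the deposited table was taken out of the 3 listed. For SPRY4, the RefSeq start lies inside the gene as the table gives it.
NRAS, chr1:114716772-114716871, minus strand: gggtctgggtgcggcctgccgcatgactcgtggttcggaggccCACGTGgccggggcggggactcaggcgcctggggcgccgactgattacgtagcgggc
DUSP6, chr12:89352502-89352601, minus strand: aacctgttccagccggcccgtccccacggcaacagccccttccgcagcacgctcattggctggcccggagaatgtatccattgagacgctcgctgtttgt
SPRY2, chr13:80341127-80341226, minus strand: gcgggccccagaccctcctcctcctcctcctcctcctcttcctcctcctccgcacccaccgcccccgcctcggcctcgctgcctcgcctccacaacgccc
SPRY4, chr5:142324248-142324347, minus strand: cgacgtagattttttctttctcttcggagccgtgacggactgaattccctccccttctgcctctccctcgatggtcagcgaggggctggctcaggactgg

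The NRAS window held an E-box 57 bases before the start, shown above, and an ETS match beginning 4 bases after it. These motifs occur in 7.26% and 10.3% of the 35116 promoters of the same length. The windows of DUSP6, SPRY2 and SPRY4 held none of the 4 motifs (0 matches each). AP-1 and cyclic AMP response element letters were found in 7.71% and 1.85% of all promoters. A window without a match lacks only these letters.

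The design asks how messages differ when IGF2BP3 is targeted. Of the 9 genes, 2 fell, both phosphatases (DUSP4 and DUSP5), 0 rose and 7 did not pass an adjusted p of 0.05 in the edgeR quasi-likelihood test, adjusted by Benjamini-Hochberg over all tested genes. Among all tested genes 11.5% fell, 8.21% rose and 19.7% did either, so 2 calls among 9 are near the background. At an unadjusted p under 0.05, 5 of the 9 were higher and 2 lower, where 33.4% of all tested genes had such a p in either direction. The count of rises depended on the method, and the share over all genes grew too. It was 4 with DESeq2, where 11.7% of tested genes rose, and 2 with limma-voom after quantile normalization (11.6%). It was 3 with limma on log2(FPKM + 1) (15%) and 2 with edgeR on genes with a mean count of at least 100 (12.8%). In 4 of the 9 genes every knockout library lay above every control, which held for 19.7% of tested genes. In 2 every knockout library lay below, which held for 21.5%, and groups without overlap in either direction made up 41.3% of tested genes. The median log2 fold change was 0.29 over the 9 genes and 0.01 over all tested genes.

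**Figure D1:**
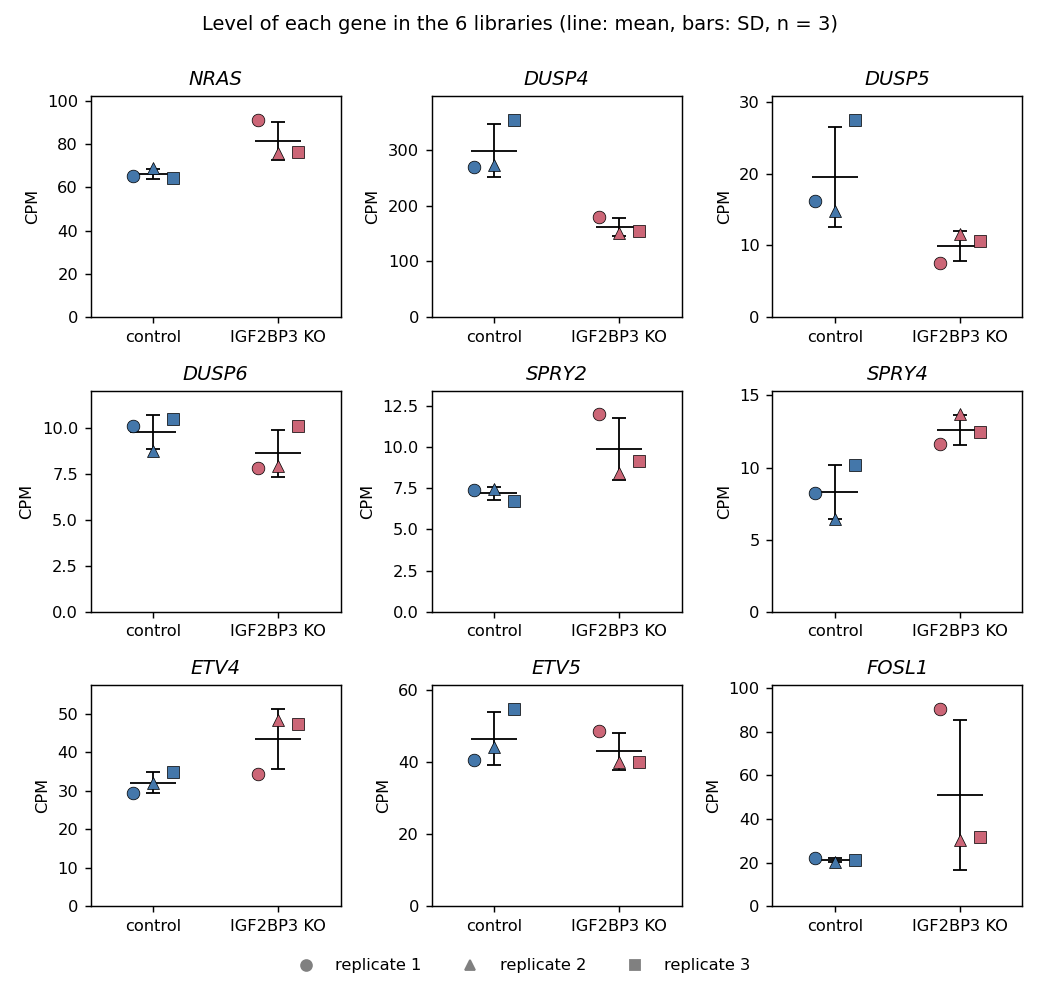
Levels of the 9 genes in CPM (vertical axes, each from 0) in the 3 control (blue) and 3 IGF2BP3 knockout (red) libraries, with the marker shape giving the replicate, the line the mean and the bars the SD. DUSP4 and DUSP5 are lower in all knockout libraries, and FOSL1 is at 90.5 CPM in knockout replicate 1 against 30.2 and 31.9 CPM in the other 2.

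NRAS (ENSG00000213281, GRCh38 chromosome 1 from 114704469 to 114716771, minus strand), the GTPase at the head of the cascade, was at 65.3, 69 and 64.5 CPM in control libraries, and at 91.4, 76 and 76.4 CPM after knockout. All 3 knockout libraries were above all controls, replicate 1 most of all. The means were 66.3 ± 2.38 and 81.2 ± 8.78 CPM (SD, n = 3; log2 fold change 0.29, SE 0.09), and the adjusted p of 0.058 missed the threshold. Without knockout replicate 1 the log2 fold change was 0.21 (adjusted p = 0.042). Over the 16 alternatives the log2 fold change ran from 0.19 to 0.34 and the adjusted p from 0.015 to 1, with 6 past the threshold. Among the 20 tested genes nearest to NRAS on chromosome 1 (10 on each side), the median log2 fold change was 0.17, with 3 rises and 3 falls.

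DUSP4 (ENSG00000120875, chromosome 8 from 29333064 to 29350684, minus strand), a nuclear phosphatase of ERK and other MAP kinases, was the clearest change of the 9. It was at 270, 273 and 355 CPM in the controls, against 180, 151 and 154 CPM in the knockout libraries. The groups did not overlap, and control replicate 3 was the highest. DUSP4 fell from 299 ± 48.4 to 162 ± 16.4 CPM (SD, n = 3; log2 fold change -0.89, SE 0.13, adjusted p = 0.0031). This call held with each library left out, at adjusted p from 0.0017 to 0.018. It was lost against a minimum fold of 1.5 (adjusted p = 0.098), the only one of 16 alternatives to do so. The 20 tested neighbours of DUSP4 had a median log2 fold change of 0.03, with 2 rises and 2 falls. For DUSP5 the neighbours' median was -0.14, with 4 rises and 2 falls. Over the 9 genes these medians ran from -0.30 (DUSP6, 1 rise and 6 falls) to 0.20 (ETV5, 3 rises and 1 fall).

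DUSP5 (ENSG00000138166, chromosome 10 from 110497907 to 110511533, plus strand), a nuclear phosphatase specific for ERK, was at 16.2, 14.8 and 27.6 CPM in control libraries, and at 7.53, 11.6 and 10.6 CPM after knockout. Its groups did not overlap either, but the controls spread widely, replicate 3 being 1.78 times the mean of the other 2. DUSP5 fell from 19.5 ± 7.04 to 9.91 ± 2.12 CPM (SD, n = 3; log2 fold change -0.98, SE 0.27, adjusted p = 0.038). The call was less secure than that of DUSP4. It was lost without control replicate 1 (adjusted p = 0.065) or 3 (0.09) and without knockout replicate 1 (0.067), 2 (0.067) or 3 (0.085). Without control replicate 3 the log2 fold change was -0.65. With both control replicate 3 and knockout replicate 1 left out, an alternative chosen after seeing the data, it was -0.47 (adjusted p = 0.021).

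DUSP6 (ENSG00000139318, chromosome 12 from 89347235 to 89352501, minus strand), the cytoplasmic phosphatase of ERK, was at 10.1, 8.74 and 10.5 CPM in the controls, against 7.82, 7.92 and 10.1 CPM in the knockout libraries. The groups overlapped, with knockout replicate 3 among the controls. The log2 fold change was -0.18 (SE 0.16, adjusted p = 0.47), and none of the 16 alternatives passed (0), the lowest adjusted p being 0.26. An unnamed gene on the opposite strand overlaps DUSP6 and had 196 counts in all 6 libraries together, against 4034 for DUSP6. The 3 phosphatases therefore did not share a call, but whether DUSP6 differed less than DUSP4 or DUSP5 was not tested.

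The Sprouty genes encode inhibitors of receptor signalling to RAS and RAF. SPRY2 (ENSG00000136158, chromosome 13 from 80335976 to 80341126, minus strand) was at 7.41, 7.44 and 6.71 CPM in control libraries, and at 12, 8.45 and 9.16 CPM after knockout. SPRY4 (ENSG00000187678, chromosome 5 from 142310427 to 142326455, minus strand) was at 8.2, 6.45 and 10.2 CPM in the controls, against 11.6, 13.7 and 12.5 CPM in the knockout libraries. For both genes every knockout library was above every control, with knockout replicate 1 the highest for SPRY2 and the lowest for SPRY4. The means of SPRY2 were 7.19 ± 0.413 and 9.89 ± 1.9 CPM (SD, n = 3; log2 fold change 0.46, SE 0.17, adjusted p = 0.097). Those of SPRY4 were 8.27 ± 1.86 and 12.6 ± 1.05 CPM (SD, n = 3; log2 fold change 0.61, SE 0.18, adjusted p = 0.053). SPRY4-AS1 on the opposite strand overlaps SPRY4 and had 121 counts in all libraries together, against 4590. Neither Sprouty gene passed in the reported fit. SPRY4 passed in 7 of 16 alternatives, including edgeR on genes with a mean count of at least 100 (adjusted p = 0.042) and the fits without control replicate 3 (adjusted p = 0.03) and without knockout replicate 1 (0.047), and SPRY2 passed in 2, DESeq2 (0.046) and limma on FPKM (0.034).

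ETV4 and ETV5 are related ETS transcription factors of the PEA3 group. ETV4 (ENSG00000175832, chromosome 17 from 43527846 to 43579620, minus strand) was at 29.5, 32 and 34.9 CPM in control libraries, and at 34.4, 48.5 and 47.4 CPM after knockout. Knockout replicate 1 lay within the controls, and the other 2 lay above them. The means were 32.1 ± 2.7 and 43.4 ± 7.87 CPM (SD, n = 3; log2 fold change 0.43, SE 0.14, adjusted p = 0.067), and without knockout replicate 1 the log2 fold change was 0.58 (adjusted p = 0.0027). Beside that value stands the overlap of ETV4 with DHX8, an RNA helicase gene on the opposite strand that spans all of it. DHX8 had 55887 counts in the 6 libraries together against 16562 for ETV4, and its log2 fold change was 0.01. The strand setting of the counting is not given in the sources used here. The ETV4 level is therefore uncertain.

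ETV5 (ENSG00000244405, chromosome 3 from 186046314 to 186110318, minus strand) was at 40.6, 44.1 and 54.7 CPM in the controls, against 48.7, 40.1 and 39.9 CPM in the knockout libraries. The groups overlapped (log2 fold change -0.12, SE 0.13, adjusted p = 0.6). Its sign turned without control replicate 3, to 0.02, and none of the alternatives passed (0 of 16). The 5' end of ETV5 overlaps the 3' end of DGKG, a diacylglycerol kinase gene on the same strand, which had 6064 counts against 19512.

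FOSL1 (ENSG00000175592, chromosome 11 from 65892049 to 65900419, minus strand), the AP-1 subunit known as FRA-1, was at 22.1, 20.5 and 21.2 CPM in control libraries, and at 90.5, 30.2 and 31.9 CPM after knockout. The controls were tight, all 3 knockout libraries were above them, and knockout replicate 1 was 2.92 times the mean of the other 2. The means were 21.3 ± 0.803 and 50.8 ± 34.4 CPM (SD, n = 3), and the log2 fold change of 1.26 (SE 0.40), the highest of the 9, missed the threshold (adjusted p = 0.062). Without knockout replicate 1 the log2 fold change was 0.55, and this smaller rise passed (adjusted p = 0.0023). Without knockout replicate 2 or 3 it was 1.52 (adjusted p = 0.043) or 1.51 (0.049). FOSL1 was thus above the controls in each knockout library, while the size of the difference rested on knockout replicate 1. JUN, which encodes a partner of FOSL1 in AP-1 and was picked after its values were seen, was likewise at 66.5 CPM in that library against 34.1 and 30.8 CPM in the other 2 and 35 to 40.9 CPM in the controls. Its log2 fold change was 0.20 (adjusted p = 0.66), turning to -0.23 (adjusted p = 0.11) without knockout replicate 1 and, without control replicate 3 as well, to -0.29, a fall that passed (0.021). Other AP-1 genes were divided. Knockout replicate 1 was the highest knockout library for JUNB and FOSL2 but the lowest for JUND, FOS and FOSB. JUND was at 7.28 CPM there, against 17.2 and 15.5 CPM in the other 2. The part of the other differences of knockout replicate 1 in these values was not tested.

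**Figure D2:**
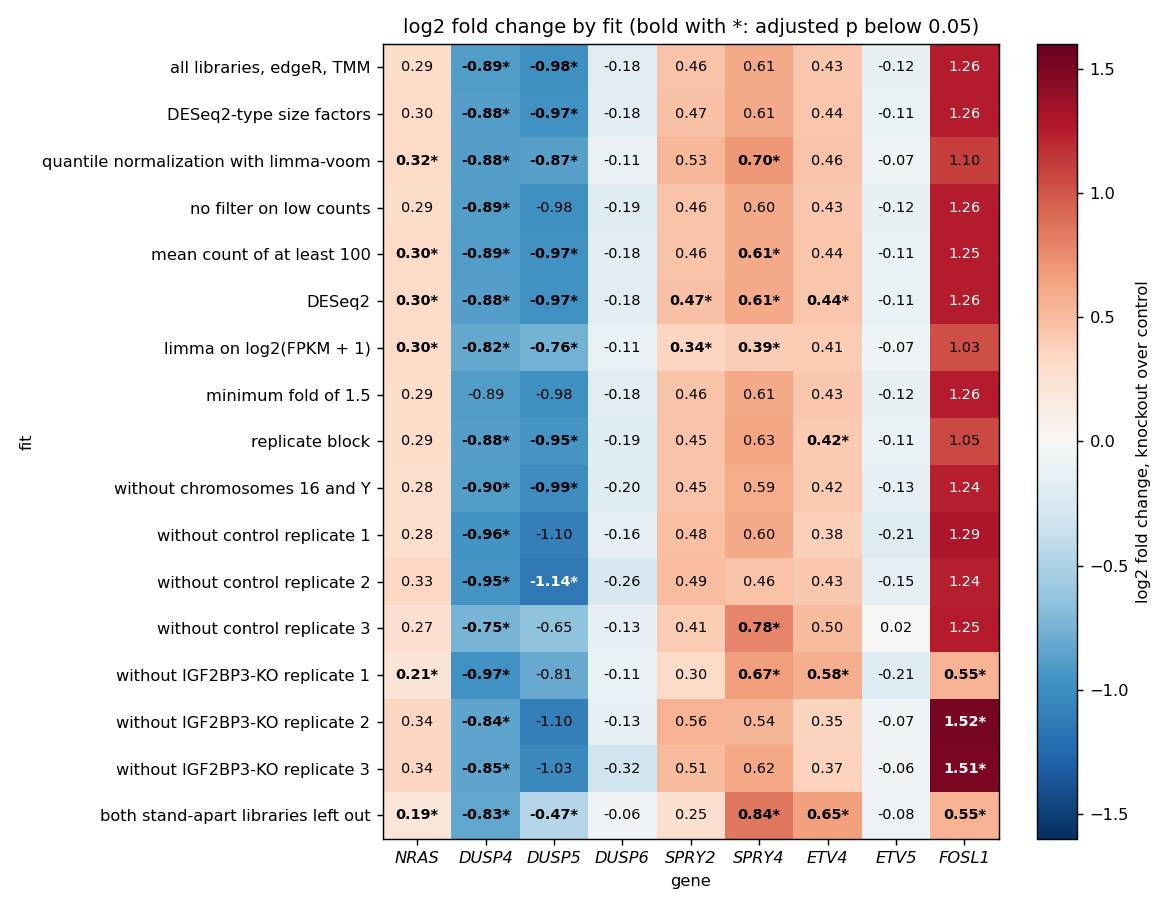
log2 fold change of knockout over control for each gene (columns) in the reported fit and its 16 alternatives (rows), with the colour giving the value and bold figures with an asterisk an adjusted p below 0.05. DUSP4 misses only against a minimum fold of 1.5, DUSP6 and ETV5 pass in none, and FOSL1 drops from 1.26 to 0.55 without knockout replicate 1.

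Levels can be compared between genes only per length, and the deposited FPKM (fragment counts scaled by gene length and library size) were used for this. In the controls DUSP4 was the highest at 38.8 ± 6.13 FPKM, followed by NRAS at 14.4 ± 0.539, FOSL1 at 10.6 ± 0.417, ETV4 at 8.6 ± 0.697, ETV5 at 7.57 ± 1.17 and DUSP5 at 7.26 ± 2.59 FPKM (SD, n = 3). DUSP6 at 2.39 ± 0.227, SPRY2 at 2.1 ± 0.126 and SPRY4 at 1.18 ± 0.264 FPKM were the lowest. The ranges of ETV4, ETV5 and DUSP5 overlapped from one to the next, as did those of DUSP6 and SPRY2. In the knockout libraries FOSL1 stood first by its mean, 25.4 ± 15.8 FPKM, which rested on replicate 1 (43.6 FPKM). In replicates 2 and 3 FOSL1, at 15.8 and 16.7 FPKM, was below both DUSP4 (20.5 and 20.9) and NRAS (17.4 in each). The FOSL1 range covered those of DUSP4, 20.5 to 22.5 FPKM, and NRAS, 17.4 to 19.2 FPKM. By mean DUSP4 came next at 21.3 ± 1.07, then NRAS at 18 ± 1.02 and ETV4 at 11.9 ± 2.68 FPKM. SPRY4 again had the lowest mean, 1.85 ± 0.233 FPKM, but its range (1.61 to 2.07) overlapped that of DUSP6 (1.84 to 2.59).

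The longest protein-coding transcript of each gene (GENCODE 29) was searched on the sense strand for GGACT, the DNA letters of a common N6-methyladenosine motif. DUSP4 held 11 matches in 5537 bases, or 1.99 per kilobase, more than 91.2% of 14345 tested protein-coding genes, whose median was 0.937. SPRY2 and DUSP5 followed with 1.85 and 1.56 per kilobase, and DUSP6 had 1.36. ETV5, ETV4, SPRY4 and NRAS lay nearer the median or under it, at 0.973, 0.823, 0.81 and 0.674 per kilobase. FOSL1 held 0 in 1669 bases. A match is a sequence of letters and not a measured modification.

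Genes whose profile over the 6 libraries was nearest to each member were found by the root mean square difference of centred log2 CPM among 11243 genes of at least 5 CPM. Among the nearest to FOSL1 was the receptor tyrosine kinase AXL (0.14). The nearest to NRAS were the kinase AKT2 (0.01) and the chaperonin subunit CCT7 (0.02). DUSP4 was nearest to MTSS2 (0.02) and MFSD6 (0.05), and DUSP5 to LINC00174 and SH3PXD2A (0.15 each). DUSP6 lay closest to SEPSECS (0.05) and ERCC6 (0.06), SPRY2 to HGS and PABPC4 (0.03 each), and SPRY4 to ZNF461 (0.08) and IGFBP6 (0.09). ETV4 lay closest to FBLN1 (0.04) and ZNF875 (0.05), and ETV5 to RNF41 and MRPL2 (0.03 each). Among the 9 themselves the closest pair was NRAS and SPRY2 (0.11) and the most distant DUSP5 and FOSL1 (1.25). With 6 libraries in 2 groups these are descriptions.

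The other genes of the pathway were read from 4 lists, likewise chosen with earlier results of these data known. Of their 88 tested genes together, 10 rose and 14 fell. The shares over all tested genes, to be set beside each list's counts, were 8.21% for rises, 11.5% for falls and 19.7% for either. Of 22 RAS-related GTPases and regulators, 2 rose, 3 fell and 17 did not pass (median log2 fold change -0.04). The adaptor SHC1, which links receptors to GRB2, fell from 484 ± 4.29 to 338 ± 23.8 CPM (SD, n = 3; log2 fold change -0.52, SE 0.08, adjusted p = 0.0039). GRB2 itself rose from 160 ± 3.86 to 208 ± 6.88 CPM (SD, n = 3; log2 fold change 0.38, adjusted p = 0.0078). The RAS exchange factor SOS1 fell with a log2 fold change of -0.32 (adjusted p = 0.017), and the GTPase RALB with -0.37 (0.042). The remaining rise, named after its value was seen, was the RAS-related GTPase RRAS (log2 fold change 0.29, adjusted p = 0.043). The SHC1 and GRB2 calls held with each library left out. SOS1 was lost without control replicate 2 or knockout replicate 2 or 3 (adjusted p from 0.061 to 0.08). RALB and RRAS held with knockout replicate 1 left out, and each was lost without any other single library (up to 0.13 and 0.14).

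Of 21 genes for RAF, MEK and ERK kinases with their scaffolds and effectors, 1 rose, 3 fell and 17 did not pass (median log2 fold change -0.02). The falls were all kinases downstream of ERK. MKNK2 fell from 105 ± 1.54 to 63.3 ± 7.41 CPM (SD, n = 3; log2 fold change -0.72, adjusted p = 0.0019), and its relative MKNK1, which like it phosphorylates the translation factor eIF4E, from 23.7 ± 1.82 to 16.7 ± 0.822 CPM (-0.51, adjusted p = 0.011). The ribosomal S6 kinase RPS6KA1 fell from 27.7 ± 1.04 to 17.8 ± 1.07 CPM (-0.64, adjusted p = 0.0029). MAP2K1, which encodes MEK1, rose from 62.9 ± 2.04 to 76.6 ± 5.45 CPM (0.28, adjusted p = 0.039). MKNK1 was lost without control replicate 2 (adjusted p = 0.059) or knockout replicate 2 (0.052), and MAP2K1 without control replicate 1, 2 or 3 or knockout replicate 2 (0.094 to 0.13).

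Of 18 other negative regulators 16 were tested, of which 1 rose, 3 fell and 12 did not pass (median log2 fold change -0.14). DUSP10, a phosphatase of the stress kinases JNK and p38, fell from 9.2 ± 0.906 to 4.99 ± 0.272 CPM (SD, n = 3; log2 fold change -0.88, adjusted p = 0.0056). ZFP36, which binds and destabilizes AU-rich messages, and ERRFI1, an inhibitor of ERBB receptors, fell with log2 fold changes of -0.59 (adjusted p = 0.0023) and -0.70 (0.012). ERRFI1 was, like DUSP4 and DUSP5, highest in control replicate 3, at 195 CPM against 142 and 141 CPM. The phosphatase DUSP14 rose from 25.9 ± 0.811 to 38 ± 5.16 CPM (log2 fold change 0.55, adjusted p = 0.011), a call lost without control replicate 1 or 2 (0.052 each).

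**Figure D3:**
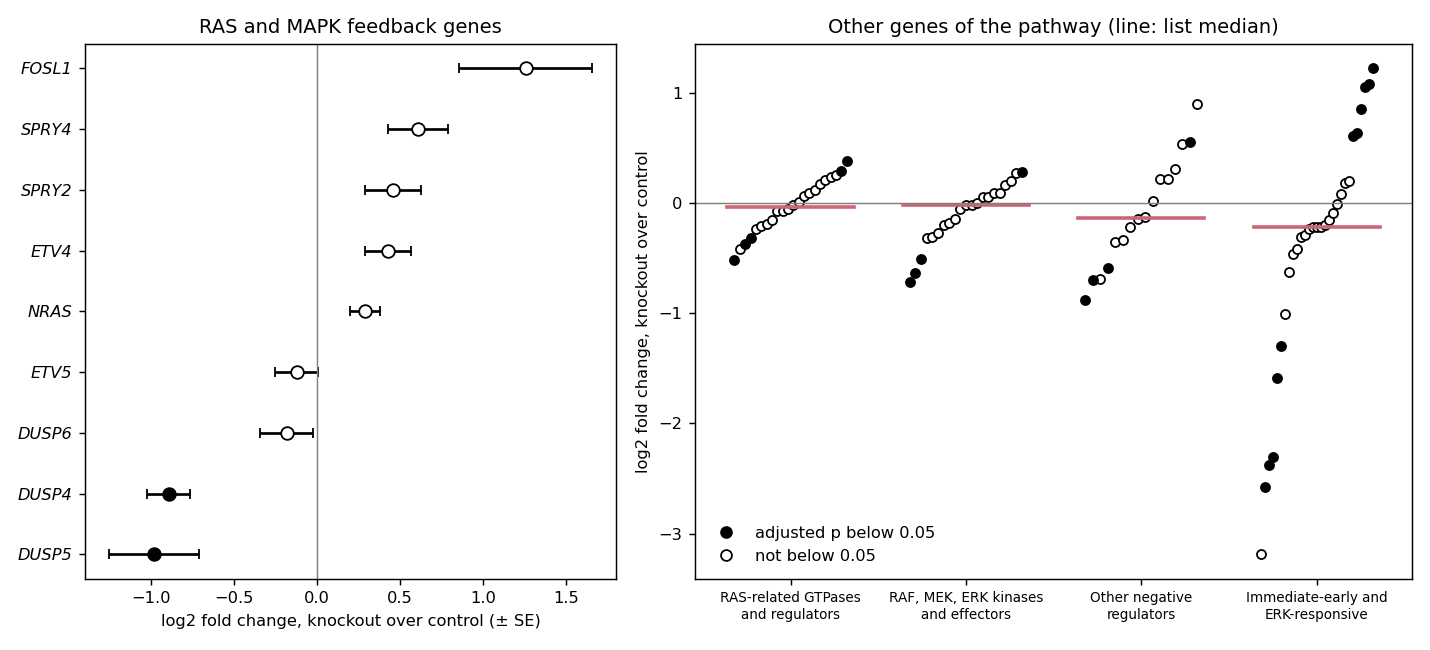
log2 fold changes of knockout over control: on the left (horizontal axis) the 9 genes with their SE, on the right (vertical axis) the tested genes of the 4 pathway lists ordered within each list, with the list median as a line. Filled points have an adjusted p below 0.05, and the widest range is that of the immediate-early and ERK-responsive list.

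Of 30 immediate-early and other ERK-responsive transcripts 29 were tested, of which 6 rose, 5 fell and 18 did not pass (median log2 fold change -0.22). Over all tested genes 8.21% rose and 11.5% fell. UPP1, a uridine phosphorylase, rose from 27.4 ± 0.916 to 49.2 ± 2.71 CPM (SD, n = 3; log2 fold change 0.85, SE 0.08, adjusted p = 4.0e-04). The cytokine LIF rose from 46.7 ± 9.01 to 109 ± 12.1 CPM (1.22, adjusted p = 0.0014) and the ERBB ligand EREG from 69.2 ± 8.66 to 143 ± 21 CPM (1.05, adjusted p = 0.0015). EMP1, a membrane protein, fell from 43.7 ± 3.77 to 14.6 ± 4.21 CPM (-1.59, adjusted p = 0.0014). These 4 calls held with each library left out and in all 16 alternatives.

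The other calls of that list were named after their values were seen. The rises were AREG, a ligand related to EREG (log2 fold change 1.08, adjusted p = 0.0024), the cyclin CCND1 (0.63, adjusted p = 0.0061) and IER3 (0.61, adjusted p = 0.03). EPHA4, an ephrin receptor, fell from 4.37 ± 1.21 to 0.729 ± 0.466 CPM (SD, n = 3; log2 fold change -2.58, adjusted p = 0.0091), and without knockout replicate 1 its log2 fold change was -3.18 (adjusted p = 0.0019). The immediate-early transcription factors EGR1, FOSB and FOS fell as well, while FOSL2, JUN, JUNB, JUND, EGR2 and IER2 of the same list did not pass. Of these, JUN and JUND overlapped between groups. FOSL2, JUNB, EGR2 (at most 0.522 CPM) and IER2 were lower in every knockout library (log2 fold changes -0.46, -0.63, -3.19 and -0.20, adjusted p from 0.058 to 0.11). In the list, 11 of 29 tested genes were lower in every knockout library and 6 higher, against 21.5% and 19.7% of all tested genes. EGR1 was at 12.9, 12.9 and 3.44 CPM in the controls, against 1.39, 2.29 and 1.93 CPM in the knockout libraries (log2 fold change -2.38, adjusted p = 0.013). FOSB was at 4.59, 4.15 and 1.49 CPM against 0.456, 0.821 and 0.79 CPM (-2.31, adjusted p = 0.012), and FOS at 9.27, 8.25 and 4.87 CPM against 1.71, 3.47 and 3.89 CPM (-1.30, adjusted p = 0.038). In all 3 of these genes control replicate 3 was the lowest control, in DUSP4 and DUSP5 the highest. Control replicate 3 thus lay between the other controls and the knockout for EGR1, FOSB and FOS, and farther from the knockout than the other controls for DUSP4 and DUSP5. The FOS call was lost without control replicate 1 (adjusted p = 0.13) or 2 (0.12) or knockout replicate 2 (0.081) or 3 (0.054). EGR1 was lost without control replicate 1 (0.051), and IER3 without control replicate 1 or 2 (0.11 each) or knockout replicate 2 (0.089) or 3 (0.096).

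**Figure D4:**
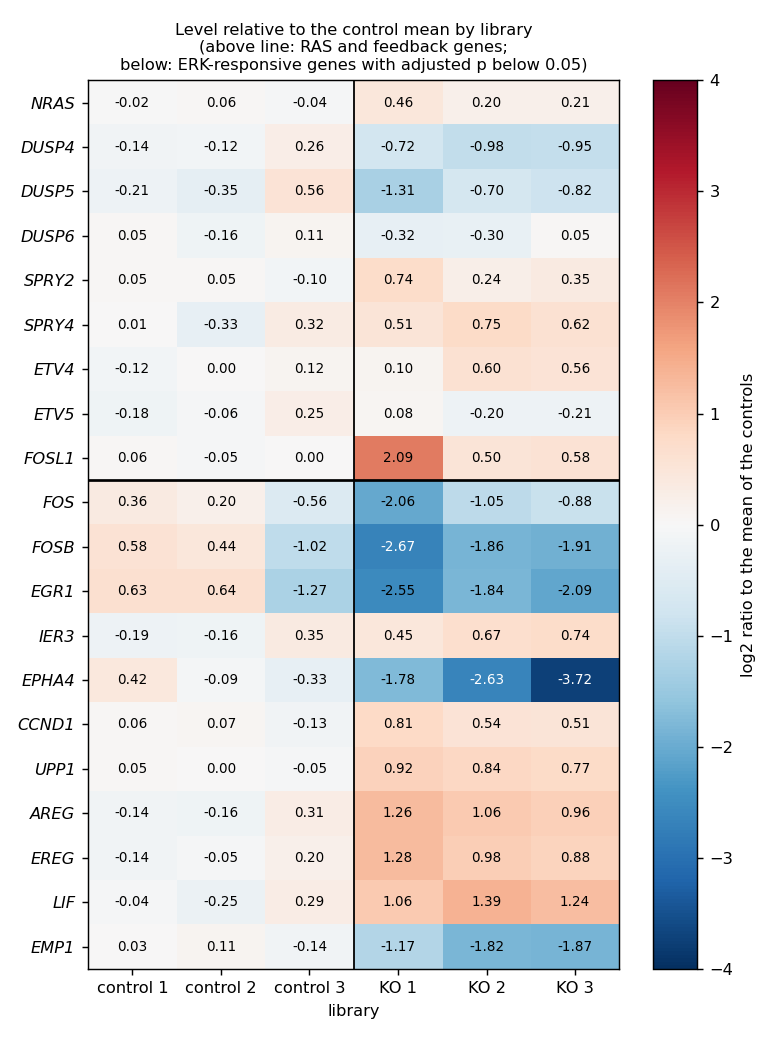
log2 ratio of each library (columns) to the mean of the 3 controls, for the 9 genes above the line and the 11 immediate-early and ERK-responsive genes with an adjusted p below 0.05 below it, with colour and printed figures giving the ratio. FOSL1 is at 2.09 in knockout replicate 1, DUSP5 at 0.56 and EGR1 at -1.27 in control replicate 3.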

How the data were processed

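Total RNA of 6 libraries was sequenced and the libraries were grouped by their titles. The labels' protocols describe trimming by Cutadapt, alignment by HISAT2 and quantification by StringTie. Versions given in the submitters' processing notes are 2.0.4 for HISAT2 and 1.3.4d for StringTie, with the build GRCh38. The authors deposited whole read counts per gene without normalization, and FPKM, which they scaled by gene length and depth. The 9 genes and the 4 lists were chosen with earlier results of these data known.

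Low counts were removed by filterByExpr. It required the CPM equivalent of about 10 counts in at least 3 libraries, the group size, and 15 counts in total. Libraries were scaled by TMM, and edgeR 4.0.16 (R 4.3.3) ran its quasi-likelihood test with genotype as the only term. Benjamini-Hochberg adjustment covered 20134 genes, with a threshold of 0.05. The SE is the absolute log2 fold change over the square root of F. The text names IGF2BP3, the 9 genes, up to 4 genes per list (the smallest adjusted p among those past the threshold) and the 2 genes nearest to each member. For FOSL1, 1 of these is not reported here. The procedure was tested on simulated data. Alternatives used DESeq2 1.42.0, limma 3.58.1 (on FPKM with pseudocount 1 and a mean of at least 1), other filters and scalings, and left-out libraries. DUSP2, MS4A1 and VWF were not analysed here.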

Additional observations from a re-analysis of the deposited data

How the results depend on the processing

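Under DESeq2-type size factors and without the genes of chromosomes 16 and Y, all 6 counts (rises and falls among the 9 genes, the 4 lists and all genes) stayed within 1.5 times those reported. Among the 9 genes the rises, 0 in edgeR, numbered 2 with quantile normalization and limma-voom, 2 with a mean count of at least 100, 4 with DESeq2 and 3 with limma on FPKM, where 2340, 1780, 2360 and 1818 of all genes rose, out of 20134, 13897, 20134 and 12120 tested. With no filter on low counts 1 of the 9 fell and 0 rose, where 1803 of 33982 tested genes fell and 1055 rose. Against a minimum fold of 1.5 the falls among the 9 numbered 0, the lists had 4 rises and 4 falls, and all genes 259 rises and 671 falls. With control replicate 3 and knockout replicate 1 both left out, chosen after seeing the data, 4 of the 9 rose, 32 listed genes fell, and 3102 of all genes rose and 3555 fell. Leaving out 1 library at a time gave 0 to 4 rises and 1 to 2 falls among the 9, 6 to 11 rises and 10 to 26 falls in the lists, and 773 to 2274 rises and 1410 to 3064 falls over all genes. Correlations of deviations between libraries of the same replicate number were -0.00464, -0.0715 and -0.0584 for replicates 1, 2 and 3. Between libraries of different numbers they ran from -0.0507 to 0.111. These values gave no sign that the numbers pair the libraries, but with so few libraries they cannot exclude it. With the replicate block 1 of the 9 rose, ETV4, and 2 fell, where 1146 of 20134 tested genes rose and 1855 fell. With 1 library left out, the log2 fold change of ETV5 ran from -0.21 to 0.02 (without control replicate 3), and that of JUN from -0.23 (without knockout replicate 1) to 0.40. JUN was at -0.29 (adjusted p = 0.021) with both libraries left out. Beyond the alternatives' own construction (fewer samples, fewer or more genes tested) the cause was not tested. Of the other single-gene values 462 kept direction and side of the threshold, 70 lost a call and 23 gained one.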
